A study of Mus musculus with 6 samples.

Results

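Mammary basal cells sorted from mice were compared between the 2 days on which they appear to have been collected. All 6 libraries of the series entered the comparison. They were divided by a code for the day that the count files carry in their names: wild type 1 and knockout 1 and 2 carry the earlier code, and wild type 2 and knockout 3 and 4 the later one. The labels speak of 2 independent experiments but do not assign samples to them, and no source used here states that the code is the date of collection. Wild-type mice were Vimwt/wt and knockout mice Vimtm1Cba/tm1Cba. All mice were 15 weeks old and of strain 129/Sv X C57BL/6, and each sample pooled 2 to 3 animals. Glands were digested with collagenase, live cells negative for CD45 and CD31, low for CD24 and high for CD49f were sorted straight into lysis buffer and frozen, and their messenger RNA was sequenced. The knockout is not restricted to a cell type by any label, and both days hold 1 wild-type and 2 knockout libraries. Nothing in the labels says which animals went into which pool, so p-values measure the spread between pools. The days themselves are not replicated, so p-values do not measure how much days vary. Digestion, sorting or library steps that differed with the day code cannot be told apart from it.

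Basal cells form the outer layer of the mammary ducts and alveoli. Most are myoepithelial: they carry smooth muscle actin, contract when oxytocin from the pituitary binds its receptor, and squeeze milk towards the nipple. They rest on a basement membrane that they help to make, attach to it by integrins, exchange Notch, Wnt and growth factor signals with the luminal cells inside, and receive the effects of estrogen and progesterone largely through neighbouring luminal cells. Tissue digestion and sorting take cells away from all of these contacts.

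Total counts ran from 25347967 to 31200622 per library. Vim, the targeted gene, was at 215 and 241 CPM (reads scaled to a common library size, here with TMM factors) in wild type 1 and 2 and at 92.4, 104, 111 and 111 CPM in knockout 1 to 4, so the knockout libraries still held Vim reads and lay below both wild-type libraries. Basal markers were abundant on both days: Krt14 was at 3905 to 4563 CPM and the basal keratin Krt5 at 1702 to 2358 CPM, and Acta2, smooth muscle actin, at 2861 to 4252 CPM. Ptprc, which encodes CD45, had 0 to 15 reads per library. Wild type 1 stood apart in markers of blood vessels: the 21 endothelial markers summed to 323 CPM there and to 75.4 to 127 CPM in the other 5 libraries, although the gate removed CD31-positive cells. Some luminal genes were also highest in wild type 1. Trf was at 736.8 CPM there and at 198.1 to 348.5 CPM in the other libraries, and Calca at 76.4 CPM there and at most 7.105 CPM in the others. Luminal keratins were present too, with Krt8 at 581 to 742 CPM.

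Between the days, 895 of 13925 tested genes were called (6.43%; edgeR's quasi-likelihood test with genotype as a covariate, Benjamini-Hochberg adjusted p under 0.05). Of these, 472 (3.39%) were higher and 423 (3.04%) lower on the later day. The median absolute log2 difference of the called genes was 0.67, and 71 were at least 2-fold higher and 114 at least 2-fold lower. The calls rested on few libraries. The 4 knockout libraries alone gave 25 calls, leaving out wild type 1 gave 38 and wild type 2 gave 42, and leaving out knockout 4 gave 120 and knockout 3 gave 482, while 1838 were called without knockout 1. Among the 103 genes named by rule and called, 5 were called under each of the 17 alternative fits: Oxtr, Adamts5, Has1, Csf2rb and Pparg. In the 11 lists with at least 4 called members, 0 to 2 members each were called without wild type 1 or wild type 2, and 0 to 3 without knockout 4. In bulk RNA, fewer cells of a type and less RNA per cell cannot be told apart.

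**Figure D1:**
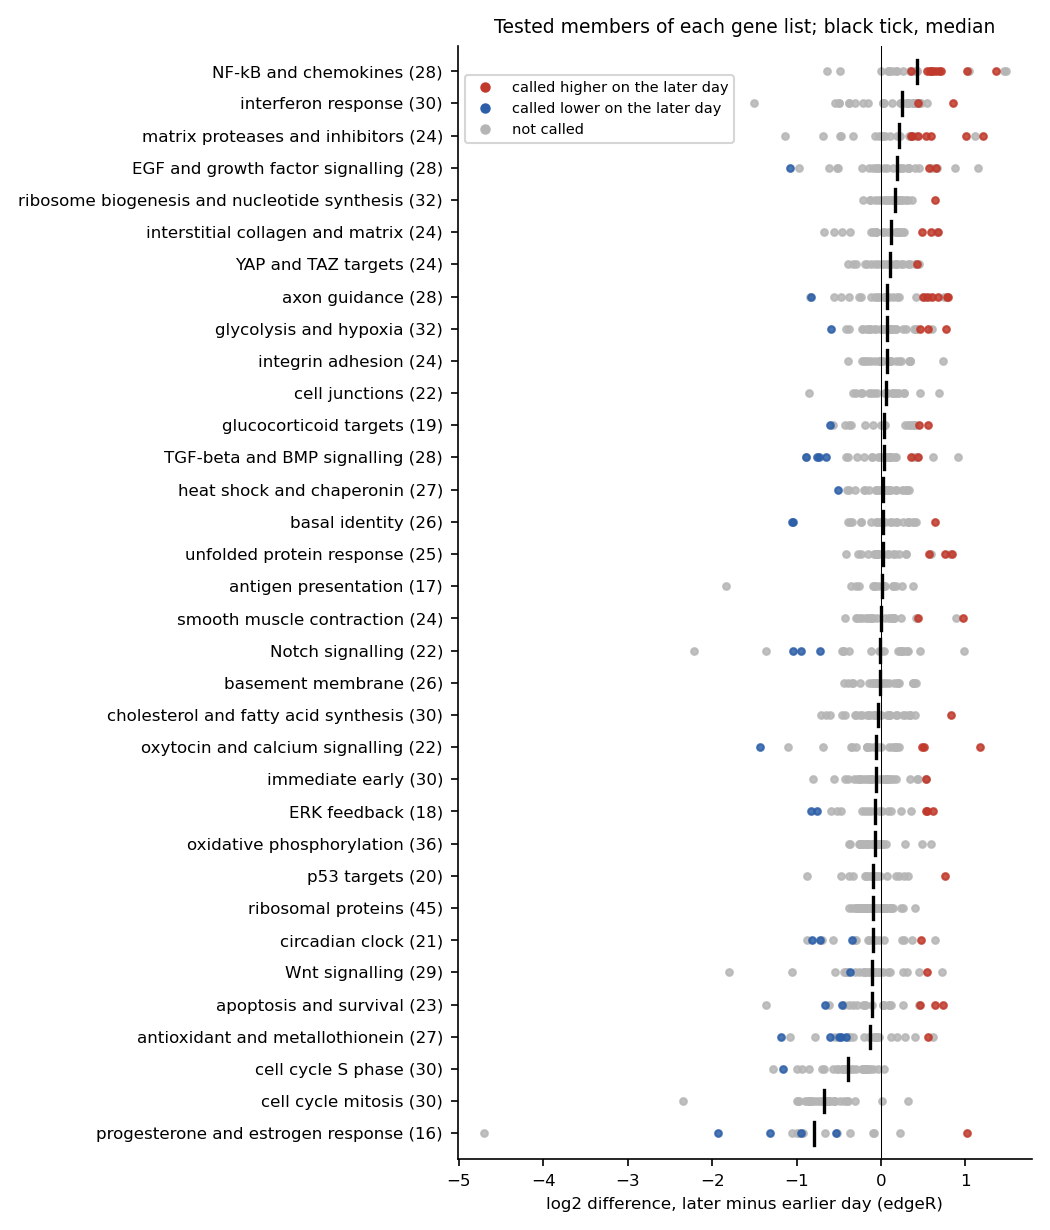
Log2 difference between the days (later minus earlier, edgeR) for the tested members of each functional list with at least 10 tested members, number tested in parentheses (lists drawn up after the data were seen are not plotted); red and blue points are called genes and the black tick is the list's median. Among the lists plotted, NF-kB has the highest median, at 0.43, and progesterone and estrogen response the lowest, at -0.80, while basement membrane, integrin and junction lists have no called member.

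The receptor through which oxytocin makes basal cells contract fell. Oxtr, the oxytocin receptor (chr6:112473684-112489808, minus strand, mm10), was at 135, 178 and 171 CPM in wild type 1, knockout 1 and knockout 2 of the earlier day and at 50.1, 68.5 and 60.6 CPM in wild type 2, knockout 3 and knockout 4 of the later day. The days did not overlap: the highest library of the later day lay below the lowest of the earlier day. The later day was 2.70-fold lower, with a log2 difference of -1.43 ± 0.09 (SE) and an adjusted p of 0.000305, and the difference was -1.43 in wild type and -1.44 in knockout.

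Downstream of the receptor, 3 genes rose. Rgs2, which speeds the shut-off of the G proteins that oxytocin receptors use, was at 62.1, 137 and 146 CPM on the earlier day and 146, 286 and 342 CPM on the later. Wild type 2 only just exceeded the knockout libraries of the earlier day, and the difference was 1.18 ± 0.10 (adjusted p = 0.000688). Itpr1, the calcium release channel opened by inositol trisphosphate, rose by 0.49 and Plcb1, the phospholipase that makes inositol trisphosphate, by 0.51 on the log2 scale. In all, 4 of 22 tested genes of oxytocin and calcium signalling were called, 3 higher and 1 lower. Over all tested genes 6.43% were called, 3.39% higher and 3.04% lower. The list median was -0.06, against -0.02 over all tested genes.

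Of 24 smooth muscle contraction genes, 2 rose and none fell (8.33% called, near the 6.43% of all tested genes), with a median of 0.00. They were Pgm5, a protein of muscle cell adhesions that rose by 0.97 from 46.1, 76.5 and 90.5 CPM to 118, 135 and 151 CPM, and Mkl1, a coactivator of serum response factor, which rose by 0.44. Acta2 had a log2 difference of -0.12 ± 0.15 and an adjusted p of 0.664. None of 26 basement membrane genes, 24 integrin adhesion genes or 22 cell junction genes was called by edgeR. At an unadjusted p under 0.05 there were 6, 5 and 4, DESeq2 called 4, 4 and 2, and limma-voom 1 in each. The 2 basement membrane genes with the smallest p were Lama3, a laminin chain, at 0.38 with an adjusted p of 0.0554, and the collagen gene Col17a1, at 0.41 with an adjusted p of 0.0663.

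**Figure D2:**
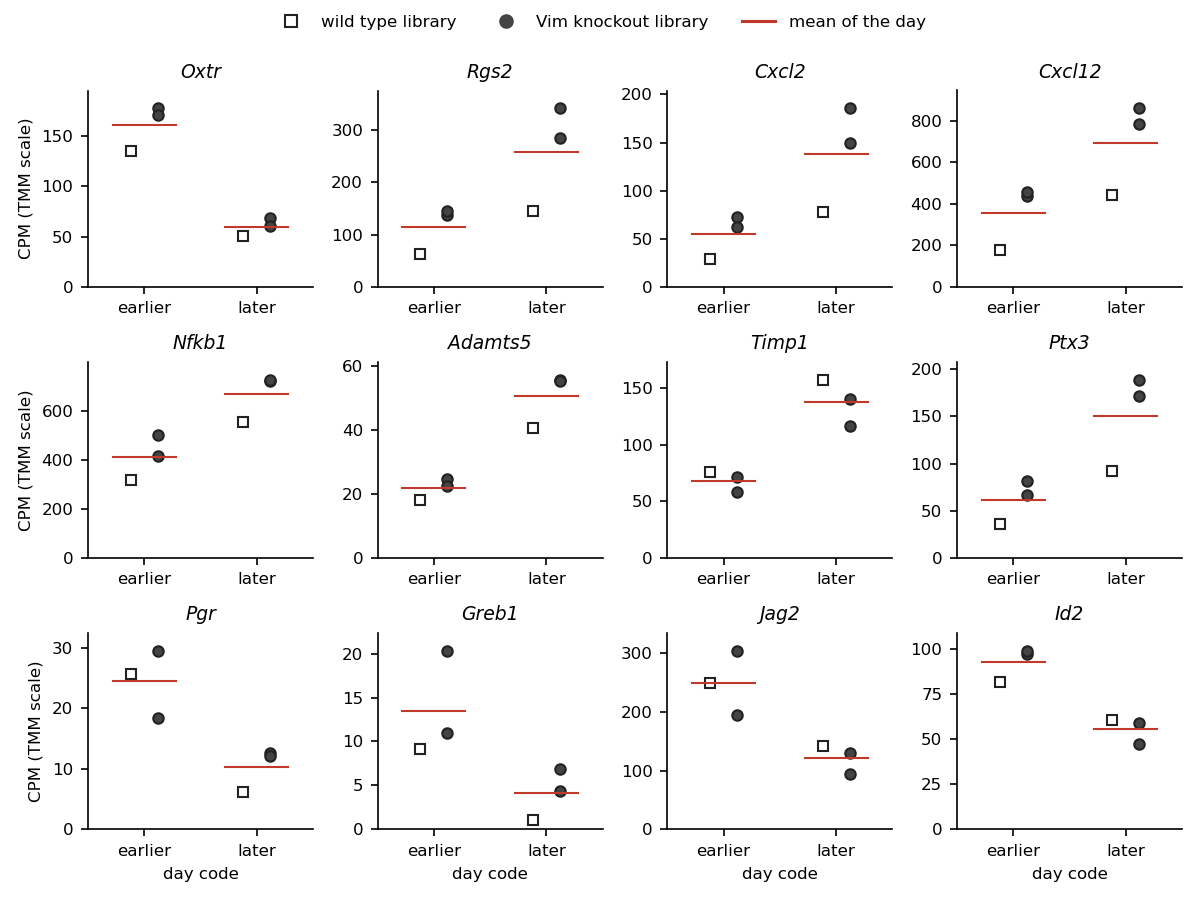
CPM on the TMM scale in each library, earlier day left and later day right, for 12 called genes; open squares are wild type, filled circles Vim knockout, and red bars the mean of the 3 libraries of a day. Oxtr falls from 135 to 178 CPM on the earlier day to 50.1 to 68.5 CPM on the later, and Cxcl2 rises within each genotype.

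The NF-kB and chemokine list had 10 called members. NF-kB is a family of transcription factors that cytokines and tissue stress release from inhibitors, and chemokines are secreted proteins that attract leukocytes. Of 28 tested members, 10 rose (35.7%, beside 3.39% of all tested genes) and none fell, 25 lay above 0, and the median was 0.43. The promoters of 4 called members are shown first, chosen because they hold a kB-like stretch.

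Cxcl1: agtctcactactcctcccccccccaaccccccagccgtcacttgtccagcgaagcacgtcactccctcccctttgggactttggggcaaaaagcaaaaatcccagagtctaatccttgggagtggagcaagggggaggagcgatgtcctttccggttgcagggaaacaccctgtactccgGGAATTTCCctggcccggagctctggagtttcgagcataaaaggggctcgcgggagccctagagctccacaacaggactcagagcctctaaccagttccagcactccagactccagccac
Cxcl2: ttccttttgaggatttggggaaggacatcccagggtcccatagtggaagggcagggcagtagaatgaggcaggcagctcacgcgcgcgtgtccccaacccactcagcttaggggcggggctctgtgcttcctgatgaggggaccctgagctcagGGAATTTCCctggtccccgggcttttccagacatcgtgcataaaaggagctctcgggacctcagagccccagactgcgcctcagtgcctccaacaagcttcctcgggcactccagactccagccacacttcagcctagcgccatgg
Nfkb2: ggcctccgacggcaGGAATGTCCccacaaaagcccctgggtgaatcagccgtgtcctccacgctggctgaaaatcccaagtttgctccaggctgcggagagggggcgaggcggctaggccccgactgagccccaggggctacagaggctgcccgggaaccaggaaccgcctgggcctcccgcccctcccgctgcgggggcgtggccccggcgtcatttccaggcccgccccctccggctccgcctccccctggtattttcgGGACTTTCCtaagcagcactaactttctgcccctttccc
Tnfaip3: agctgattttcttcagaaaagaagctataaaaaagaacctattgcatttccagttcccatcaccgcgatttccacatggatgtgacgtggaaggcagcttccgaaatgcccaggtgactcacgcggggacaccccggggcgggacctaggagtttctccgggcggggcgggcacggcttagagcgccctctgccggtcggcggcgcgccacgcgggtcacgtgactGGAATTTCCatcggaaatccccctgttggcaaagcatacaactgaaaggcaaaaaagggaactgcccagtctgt

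These are RefSeq promoter windows of 300 bases on GRCm38.p6 (the mm10 assembly), each printed 5′ to 3′ on the gene's strand: Cxcl1 chr5:90890995-90891294 and Cxcl2 chr5:90903649-90903948 on the plus strand, Nfkb2 chr19:46305445-46305744 on the plus strand, and Tnfaip3 chr10:19015361-19015660 on the minus strand. Capitals mark matches to the letters GGANNTTCC, a kB-like motif chosen after the data were seen and searched on both strands. Matches begin at -70 in Cxcl1, -96 in Cxcl2 and -24 in Tnfaip3, and at -236 and 12 in Nfkb2, counted from the transcription start, and none overlapped another motif searched. Of the 10 called members, 8 were in the RefSeq table, with 11 promoters, of which 5 held a match (in 4 genes); of all 32851 promoters 4.26% held it. The AP-1 letters TGANTCA were in 3 of the 11 and in 7.81% of all promoters. The share among uncalled members of the list was not counted, so these shares do not tie the motif to the rise. A match is a run of letters and says nothing on binding.

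Cxcl2, a chemokine for neutrophils, was at 28.6, 72.0 and 62.5 CPM on the earlier day and 78.1, 186 and 150 CPM on the later. Wild type lay below knockout on both days, and within each genotype each later library lay above each earlier library. The difference was 1.36 ± 0.11 (adjusted p = 0.000688), and it was past the threshold in the fit of knockout libraries alone. Its neighbour Cxcl1 rose by 0.60, from 437 to 654 CPM on the earlier day to 731 to 973 CPM on the later. Cxcl12, which binds the receptor CXCR4, was at 177, 438 and 457 CPM and then at 442, 860 and 783 CPM. Its days overlapped, since wild type 2 lay between the knockout libraries of the earlier day, and the difference was 1.02 ± 0.12 (adjusted p = 0.00283).

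Genes of 3 NF-kB subunits rose as well. Nfkb1, which encodes p105 and p50, was at 316, 417 and 499 CPM and then at 552, 719 and 726 CPM without overlap, a difference of 0.71 (adjusted p = 0.00723). Nfkb2 rose by 0.61 and Relb by 0.58. The other subunit genes, Rela and Rel, both outside the list, were not called, at 0.31 (adjusted p = 0.0668) and 0.44 (adjusted p = 0.0923). Genes known to restrain the pathway or to block cell death rose with them, Tnfaip3 by 0.68 and the caspase inhibitor gene Birc3 by 0.64. Nfkbia, the inhibitor IκBα, had a value of 0.40 with an adjusted p of 0.0765. The cytokine genes Tnf and Il6 were not called, at 0.19 (adjusted p = 0.571) and 1.04 (adjusted p = 0.231). Without wild type 1, without wild type 2 or with knockout libraries only, 2 members were called, and without knockout 4 there were 3; without the genotype covariate none was called. The median was 0.46 without either wild-type library, 0.54 without knockout 4 and 0.41 without the covariate. No leukocyte marker with enough reads was called.

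Some genes that remodel the extracellular matrix rose. Of 24 matrix proteases and inhibitors, 7 rose (29.2%, beside 3.39% of all tested genes), none fell and 17 were not called, with a median of 0.21. Adamts5, which cleaves proteoglycans such as aggrecan, was at 18.2, 24.6 and 22.5 CPM on the earlier day and 40.5, 55.8 and 55.3 CPM on the later, with no overlap. It rose 2.31-fold (log2 1.21 ± 0.10, adjusted p = 0.000688). Timp1, an inhibitor of metalloproteinases, was at 75.5, 71.8 and 57.9 CPM and then at 158, 116 and 141 CPM, a rise of 1.01 ± 0.11 (adjusted p = 0.00283). Its inhibitor relative Timp2 rose by 0.37, the protease genes Adamts1 and Mmp2 by 0.59 and 0.54, and Plau, which encodes urokinase, by 0.44. Without wild type 1 or wild type 2, Adamts5 was the 1 member still called, and there were 2 without knockout 4 and 3 without knockout 3.

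Of 24 interstitial collagen and matrix genes 3 rose and none fell, beside 3.39% of all tested genes called higher and 3.04% lower. Col5a1, a fibrillar collagen, rose by 0.60 from 134, 175 and 181 CPM to 265, 228 and 242 CPM. Fn1, fibronectin, was at 47.0, 164 and 147 CPM and then at 69.4, 313 and 203 CPM, so the genotypes differed more than the days, and rose by 0.68 (adjusted p = 0.0373). Eln, elastin, rose by 0.48. Among basal identity genes 3 of 26 were called, beside 6.43% of all tested genes. Pdpn, podoplanin, rose by 0.64, and Krt15, a basal keratin, and Jag2, a Notch ligand, fell by 1.05 and 1.04. Krt5, Krt14 and Trp63, which encodes the basal transcription factor p63, were not called, at -0.23, 0.00 and -0.04.

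Genes of the hormone response lay lower on the later day. Over all tested genes, 3.04% were called lower and 3.39% higher, and 47.4% lay above 0. Of 16 tested genes of progesterone and estrogen response, 4 fell and 1 (Cxcl12) rose, only 2 lay above 0, and the median was -0.80. Pgr, the progesterone receptor, was at 25.6, 29.5 and 18.4 CPM and then at 6.12, 12.6 and 12.04 CPM. The days did not overlap, and the fall was 2.48-fold (log2 -1.31 ± 0.27, adjusted p = 0.0318). Greb1, an estrogen-induced gene, was at 9.13, 20.3 and 11.0 CPM and then at 1.001, 4.37 and 6.85 CPM, with wild type 2 the lowest, and fell by 1.93 ± 0.41 (adjusted p = 0.0451). Prlr, the prolactin receptor, fell by 0.94, and Tnfrsf11a, which encodes RANK, the receptor for the progesterone-induced ligand RANKL, by 0.53. In wild type (1 library against 1) and knockout the differences were -2.05 and -0.92 for Pgr, -3.10 and -1.44 for Greb1. They were -1.57 and -0.675 for Prlr, and -0.54 and -0.52 for Tnfrsf11a. Calca had a difference of -4.71 but was not called (adjusted p = 0.0538). It was at 76.4 CPM in wild type 1, and its days overlapped. Without wild type 1, or without wild type 2, the list had 1 call, Cxcl12, and without knockout 3 it also had 1, against 2 without knockout 4 and 8 without knockout 2. Markers of hormone-sensing luminal cells, which overlap this list, summed to 2257 to 2582 CPM on the earlier day and 2104 to 2170 CPM on the later. In that list 3 of 22 tested markers fell (Pgr, Prlr and Krt19), 18 lay below 0 and the median was -0.53, while Krt8 and Krt18, its most abundant members, stood at -0.03 and -0.15. The part of admixed luminal cells in the hormone result was not tested.

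**Figure D3:**
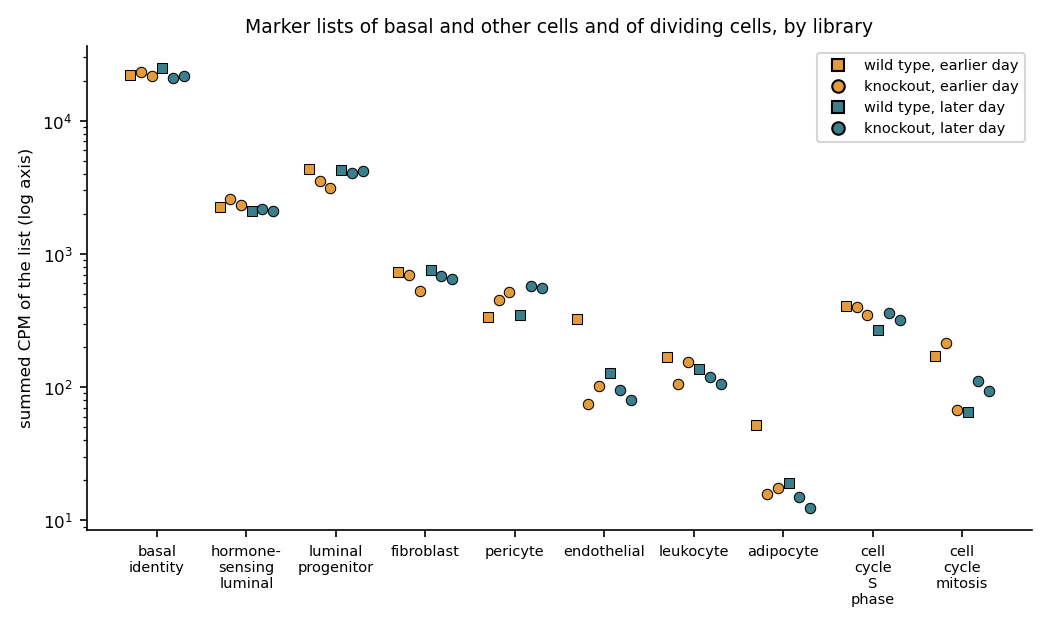
Summed CPM of marker lists for basal and other cell types and for dividing cells, on a log axis, in each library; squares are wild type and circles knockout, orange the earlier and blue-green the later day. Endothelial markers are highest in wild type 1, at 323 CPM, and hormone-sensing luminal markers lie at 2104 to 2170 CPM on the later day, below all libraries of the earlier day.

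Markers of other cell types were also tested. None of 21 endothelial or 5 tested leukocyte markers was called by edgeR (2 and 1 had an unadjusted p under 0.05, and DESeq2 called 1 and 0), and 1 of 18 fibroblast markers (Thy1, 0.82), 1 of 10 pericyte markers (Steap4, 0.68) and 2 of 22 luminal progenitor markers, among them Ltf, rose. These are 5.56%, 10% and 9.09% of the tested markers, beside 6.43% of all tested genes. Uncalled members lay on both sides of 0. Among luminal progenitor markers Itga2 was at 0.73, Elf5 at -0.97 and Ehf at -1.21, and among pericyte markers Pdgfrb was at 0.35 and Rgs5 at -1.10. Fibroblast markers summed to 524 to 736 CPM on the earlier and 648 to 755 CPM on the later day. Pparg, a nuclear receptor listed with the adipocyte markers, was at 1.95, 3.14 and 2.49 CPM and then at 0.193, 0.101 and 0.197 CPM (log2 -3.92, adjusted p = 0.00211). The adipocyte markers Adipoq and Plin1 were at 0.316 CPM or below in every library, and Fabp4 was highest in wild type 1, at 42.7 CPM.

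Some genes of signalling between cells were called in each direction. Over all tested genes, 3.39% were called higher and 3.04% lower. Of 22 Notch genes 3 fell and none rose, with a median of -0.01. Jag2 was at 250, 196 and 305 CPM and then at 142, 130 and 94.1 CPM, without overlap (2.06-fold lower, adjusted p = 0.0247). Hes1, a transcriptional target of Notch, and Lfng, which modifies Notch receptors, fell by 0.72 and 0.95. Of 28 TGF-beta and BMP genes 4 fell and 2 rose. Id1, Id2 and Id3, which BMP signals induce and which block basic helix-loop-helix factors, fell by 0.76, 0.73 and 0.65. Id2 was at 81.8, 97.2 and 99.0 CPM and then at 60.5, 59.0 and 47.1 CPM. The ligand gene Tgfb3 fell by 0.89, and Pmepa1, a TGF-beta target, rose by 0.43. Without wild type 1, wild type 2 or knockout 4, no member of this list was called.

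Of 28 axon guidance genes, whose products also steer epithelial cells, 6 rose and 1 fell, beside 3.39% and 3.04% of all tested genes. Sema3c, a secreted semaphorin, was at 69.3, 83.3 and 87.6 CPM and then at 150, 138 and 125 CPM (0.79 ± 0.12, adjusted p = 0.00678). Slit2, a secreted ligand of Robo receptors, rose by 0.68 and the ephrin receptor gene Ephb2 by 0.79, and Plxnd1, a semaphorin receptor gene, fell by 0.82. ERK feedback genes were split, with 3 of 18 higher, among them Spry2 by 0.61, and 2 lower, Dusp4 by 0.76 and Etv4 by 0.82. In growth factor signalling, Fgfr2 and Tgfa rose by 0.66 and 0.56 and Fgfr3 fell by 1.08, and no other member was called. The days of Fgfr2 overlapped, with knockout 2 at 590 CPM and wild type 2 at 524 CPM. Of 29 Wnt genes 2 were called (6.90%, near the 6.43% of all tested genes), Wnt10a at 0.55 and the coreceptor Lrp5 at -0.37.

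**Figure D4:**
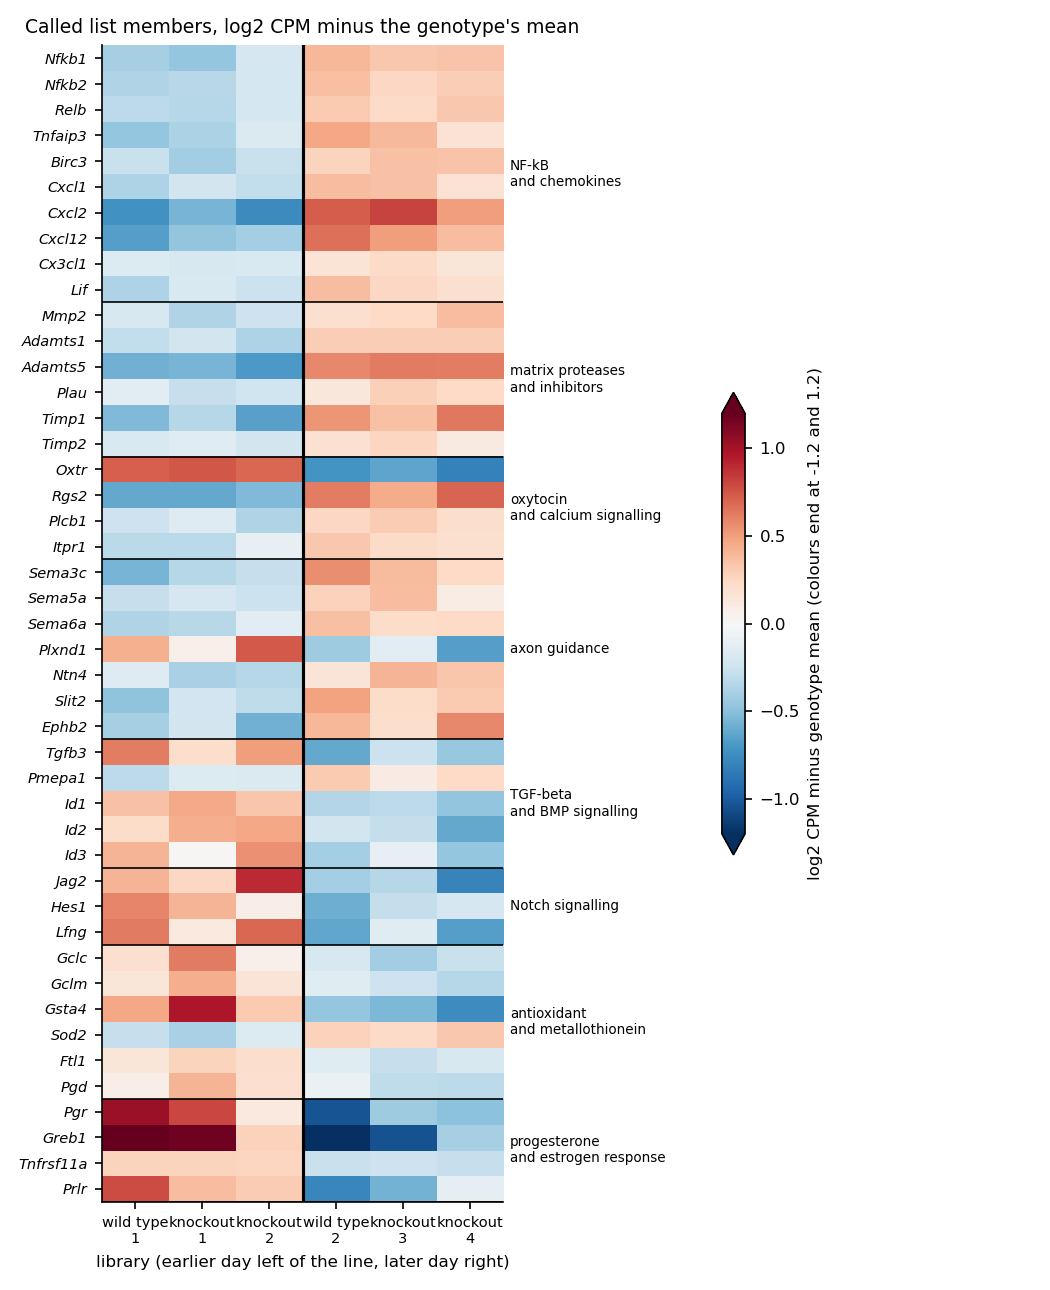
Log2 CPM of called members of 8 lists (1 gene is not shown) in each library after subtracting the mean of its genotype, so that the 2 wild-type columns mirror each other; red is above and blue below that mean, and the colours end at -1.2 and 1.2. The NF-kB genes are blue in the earlier and red in the later libraries, while Oxtr, the Id genes and Notch genes run the other way. Showing only called genes favours this split by construction.

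Stress and metabolism genes moved in part. Over all tested genes, 3.39% were called higher and 3.04% lower. Of 27 antioxidant and metallothionein genes 5 fell and 1 rose, with 21 below 0. Gclc and Gclm, the subunits of the enzyme that starts glutathione synthesis, fell by 0.60 and 0.49, and Gsta4, a glutathione transferase, was at 12.01, 10.4 and 6.60 CPM and then at 6.27, 3.66 and 3.15 CPM. Ftl1, ferritin light chain, which has near-identical copies and is therefore uncertain, fell by 0.41. Sod2, the mitochondrial superoxide dismutase, rose by 0.55. None of these calls was kept without wild type 1, without wild type 2 or without knockout 4. In the unfolded protein response 3 of 25 rose (Sesn2 by 0.75, Ddit3 by 0.57 and Trib3 by 0.84), all stress genes that the factor ATF4 can induce. Sesn2 was at 150, 174 and 149 CPM and then at 258, 272 and 268 CPM.

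Of 30 immediate early genes, the set that responds within minutes to handling and growth factors, 1 was called, Fosl1 at 0.54. Among 27 heat shock genes 1 was called, Hspa8 at -0.51, whose processed copies make its counts uncertain. Both shares lay below the 6.43% of all tested genes called. Clock genes gave 4 calls of 21: Nr1d2 (encoding REV-ERBβ), Tef and Csnk1e fell by 0.81, 0.73 and 0.34, and Nfil3, a repressor that opposes Tef, rose by 0.47. Nr1d2 was at 56.2, 53.1 and 71.4 CPM and then at 30.9, 35.4 and 36.6 CPM. Among glycolysis and hypoxia genes, Hk2, which encodes hexokinase 2, rose by 0.77 from 90.9, 88.4 and 102 CPM to 158, 137 and 184 CPM. Ddit4 and Ero1l of the same list rose by 0.55 and 0.47, while Adm fell by 0.59. In that list limma-voom called 3 of 32 genes higher and 1 lower, with a median of 0.08. Of 23 apoptosis and survival genes 3 rose and 2 fell: Birc2, a relative of Birc3, and Cflar, which blocks caspase 8, rose by 0.74 and 0.46, and Bcl2l1, which encodes the survival protein BCL-XL, fell by 0.67. Of 30 interferon response genes 2 rose (6.67%, near the 6.43% of all tested genes called), Stat2 by 0.44 and Igtp by 0.85, with a list median of 0.25. No gene of 36 in oxidative phosphorylation or of 45 ribosomal protein genes was called by edgeR (5 and 7 had an unadjusted p under 0.05, and DESeq2 called 0 and 1), and Odc1, ornithine decarboxylase, was the 1 called of 32 in ribosome biogenesis and nucleotide synthesis.

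Genes of dividing cells lay lower on the later day, mostly without passing the test. Among all tested genes 3.04% were called lower, 3.39% were called higher and 47.4% lay above 0, so the calls alone do not set these lists apart. Of 30 S phase genes 29 lay below 0 with a median of -0.39 and 1, Mcm2, a part of the replicative helicase, fell (16.6, 11.5 and 10.4 CPM, then 3.89, 7.59 and 5.79 CPM, adjusted p = 0.0454). Of 30 mitosis genes 28 lay below 0 with a median of -0.68 and none was called by edgeR, while 4 had an unadjusted p under 0.05 and DESeq2 and limma-voom called 1 each. The summed mitosis genes were at 170, 216 and 66.9 CPM on the earlier day and 64.6, 112 and 94.1 CPM on the later, so the days overlapped through knockout 2.

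Other genes were chosen by size among called genes whose mean log2 CPM was 3 or more and whose days did not overlap, predicted genes left out. The largest rises among them were in Scnn1g and Cgref1, while the log2 differences of all called genes ran from -3.93 to 3.13. Scnn1g, a subunit of the epithelial sodium channel, was at 8.06, 17.98 and 20.9 CPM and then at 31.2, 57.4 and 76.2 CPM, 3.56-fold higher (log2 1.83 ± 0.14, adjusted p = 0.000595). Has1, a hyaluronan synthase, rose by 1.32 from 22.9, 24.2 and 32.8 CPM to 63.1, 66.0 and 68.6 CPM, and Ptx3, a secreted pattern recognition protein, by 1.30. Il11, a cytokine, rose by 1.30 and Csf2rb, the common chain of several cytokine receptors with a near-identical mouse copy that makes its counts uncertain, by 1.21. The largest falls within the same limits were in Alox15, a lipoxygenase gene, at 9.13, 25.6 and 19.4 CPM and then 0.962, 3.79 and 6.73 CPM (log2 -2.39, adjusted p = 0.00601), and in Edar, the ectodysplasin receptor gene, at -2.04. Adamts18, a protease gene that is not in the matrix protease list, fell by 1.92 and Txnip, an inhibitor of thioredoxin and glucose uptake, by 1.18.

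The day difference was not shown to depend on genotype. In the fit with a day by genotype term, 0 of 14385 genes were called (0%) by edgeR, 607 had an unadjusted p under 0.05, and DESeq2 called 11 and limma-voom 0. Without knockout 1 the count was 278 and without knockout 2 it was 428. Across all tested genes the wild-type difference (1 library against 1) and the knockout difference (2 against 2) had r = 0.48. These differences share no library, but all genes come from the same libraries, so r is a description over genes.

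**Figure D5:**
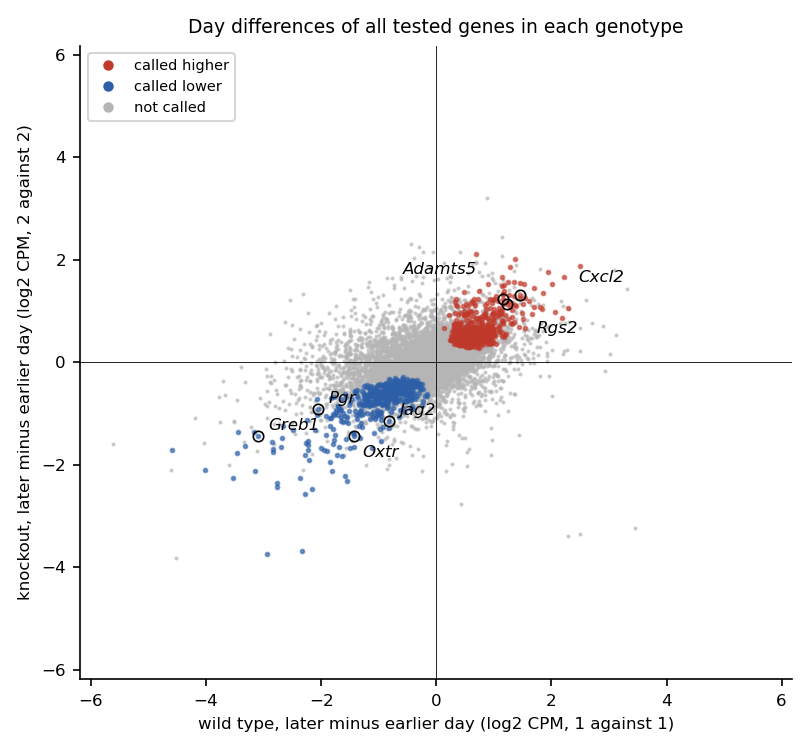
Difference in mean log2 CPM between the days, later minus earlier, in wild type (x axis, 1 library against 1) against knockout (y axis, 2 against 2) for all 13925 tested genes; red and blue points are called genes. Called genes lie in the lower left and upper right, which the test on all 6 libraries favours by its construction, and Oxtr is at -1.43 and -1.44.

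The calls also moved with base composition and level. In the highest quintile of tested genes by transcript GC content, 92 rose and 162 fell, and in the lowest quintile 87 rose and 21 fell. In the highest quintile by mean log2 CPM, 231 rose and 45 fell, and in the lowest quintile 15 rose and 39 fell. With a GC offset per library, a choice made after the data were seen, 509 genes rose and 369 fell. Library correlations of log2 CPM were 0.977 to 0.989 within a day and 0.970 to 0.984 between days. The part of GC content and level in the results was not tested further.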

How the data were processed

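Per the labels' protocols, RNA of sorted cells was made into stranded mRNA libraries. The deposited values are raw counts, which the authors made per gene with featureCounts 1.5.1, over exons of the UCSC mm10 annotation, reverse-stranded (option 2), and without options for multi-mapped or multi-overlapping reads, per the file headers. Bcl2fastq 2.17, STAR 2.5.2b and Subread 1.5.1 are listed in the submitters' processing notes. Genes that share reads with near-identical or overlapping genes are therefore uncertain. Of 23337 genes, 9412 were set aside by filterByExpr and 13925 tested with edgeR 4.0.16 (R 4.3.3; TMM, genotype and day, robust glmQLFit, 2-sided glmQLFTest, 3 residual degrees of freedom). CPM and log2 CPM (prior count 2) were computed on that scale. Alternatives used DESeq2 1.42.0, limma 3.58.1 (voom), other scalings, filters and thresholds, a replicate block, and each library left out in turn. The fit was also tested on simulated counts. Genes named were up to 15 per direction by size among called genes with mean log2 CPM of at least 3 and no overlap of days (predicted genes left out), up to 4 called members per list by p, or 2 uncalled where none was called, and 13 fixed genes; others were chosen after their values were seen. Transcript GC content came from GENCODE M21, and promoters from RefSeq (GRCm38.p6). The comparison, the 48 gene lists and the rules were chosen with earlier results of these data known. A result on 1 gene is not reported here. A further 5 lists, a kB-like motif and a GC offset were added after the data were seen. Total counts of 25347967 to 31200622 per library set the counting error only, which is largest for genes with few reads.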

Additional observations from a re-analysis of the deposited data

Results flagged for a closer look

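Among 53 library measures examined over the 4 knockout libraries (total counts and the summed CPM of each gene list), 5 had a knockout library that lay far from the other 3, where chance gives about 1 in 20 groups. The knockout libraries come from both days, 2 each. Summed integrin adhesion genes were lowest in knockout 4, at 14080 CPM. Summed cell junction genes were lowest in knockout 2, at 10510 CPM, and summed milk protein genes also, at 510.4 CPM. Knockout 1 was highest in summed Notch genes, at 3117 CPM, and in summed oxidative phosphorylation genes, at 3744 CPM. Single abundant genes weigh on such sums. Jag1 in the Notch list was at 1943 CPM in knockout 1 and at 1253, 1260 and 1423 CPM in knockout 2, 3 and 4. Mfge8 in the milk protein list was at 313 CPM in knockout 2 and at 462, 433 and 401 CPM in knockout 1, 3 and 4.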

How the results depend on the processing

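The count of called genes depended on the fit. DESeq2 called 1473 genes (805 higher, 668 lower), day as the only term 176 (85 and 91), the knockout libraries alone 25 (18 and 7), an adjusted p under 0.01 161 (108 and 53) and a 2-fold limit 185 (71 and 114). With no low-count filter 664 were lower. Leaving out a library each time gave 38 to 1838 calls, 30 to 949 higher and 8 to 889 lower. The day by genotype term gave 11 calls with DESeq2, 7 with no low-count filter and 7 to 428 with a knockout library left out, and it could not be fitted without a wild-type library. Without a wild-type library the other is taken up by the genotype term, so those fits rest on the knockout libraries for the day. Of the 103 named called genes none reversed, and 12 were called in the knockout libraries alone. Every fit reuses libraries in which these genes were chosen, which favours the same sign. The names within a day (WT, KO1, KO2) were used as a replicate block, which gave 787 calls (431 and 356). The difference of knockout 1 from 2 had r = -0.096 with that of knockout 3 from 4 across genes, so the names were not taken to pair the libraries. The causes of these changes were not tested. Where a library left out leaves 1 in an arm, that library is assumed to vary like the others. With 3 residual degrees of freedom the number of libraries limits the precision, and depth limits genes with few reads.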

Other observations

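Several further gene groups were drawn up after their leading genes had been seen among the calls, so their counts describe and support nothing. Over all tested genes, 3.39% were called higher and 3.04% lower. In the interleukin-6 family, cytokines that signal through the shared receptor chain gp130, 7 of 15 tested genes were higher on the later day and none lower. Il11 was at 32.7, 71.5 and 57.9 CPM in wild type 1 and knockout 1 and 2 and at 117, 118 and 148 CPM in wild type 2 and knockout 3 and 4. Osmr, the oncostatin M receptor gene, was at 485, 503 and 489 CPM and then at 777, 804 and 802 CPM, and Il6st, which encodes gp130, at 395, 436 and 420 CPM and then at 599, 651 and 615 CPM. Neither gene's days overlapped. Csf3, encoding a granulocyte growth factor that was listed with them, was at 137, 284 and 261 CPM and then at 269, 426 and 556 CPM, with wild type 2 inside the range of the earlier knockout libraries.

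Prostaglandin synthesis and receptor genes gave 3 calls of 11 tested, all higher. They were Ptgs1 and Ptgs2, the cyclooxygenases, the first at a log2 difference of 1.04 and the second at 195, 424 and 264 CPM and then at 554, 521 and 702 CPM, and Ptges, a prostaglandin E synthase gene, at 0.60. Ptgs2 was near the threshold (adjusted p = 0.0466), and the receptor gene Ptger4 was at -0.48 without being called (adjusted p = 0.0515). Calls of this group with a library left out were not counted. Of 11 hyaluronan genes 5 were higher: besides Has1 and Ptx3, Has2 was at 294, 348 and 271 CPM and then at 546, 488 and 536 CPM, and Cd44, a hyaluronan receptor gene, at 844, 1034 and 922 CPM and then at 1564, 1392 and 1410 CPM.

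Imprinted genes, expressed mainly from the copy inherited from 1 parent, gave 6 higher and 1 lower of 22. Meg3, Rian and Mirg, noncoding RNAs of a shared cluster on chromosome 12, had log2 differences of 0.86, 0.98 and 1.22. Meg3 was at 82.6, 79.4 and 108 CPM and then at 148, 148 and 197 CPM. Peg3, on another chromosome, had a difference of 0.97. Zdbf2 was at 15.8, 24.7 and 37.0 CPM and then at 39.5, 64.0 and 71.7 CPM. Of 22 fatty acid oxidation genes 8 were lower and none higher, among them Pdk4, which restrains glucose oxidation, at -0.61, Acot1 at -1.07, and Esrra, a nuclear receptor gene, at -0.66. Without wild type 1, or without wild type 2, the calls fell to 0 in the interleukin-6, imprinted and fatty acid groups and to 2 in the hyaluronan group. Without knockout 4 they were 2, 3, 0 and 2, and the fatty acid group had 5 without knockout 2 and 2 without knockout 3.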
